A study of Mus musculus with 30 samples.

Results

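How the effect of a stroke on astrocytes changed between the first and the third day was measured as a difference of 2 effects, MCAO minus sham at 3 days minus MCAO minus sham at 1 day. The arrays were chosen by their titles and make 15 of the 30 arrays of the series. They are 3 arrays of MCAO and 3 of sham surgery at 3 days, and 5 of MCAO and 4 of sham surgery at 1 day. MCAO, middle cerebral artery occlusion, was transient, with the vessel closed for 1 hour and then reperfused. All mice were young adult males of the line Tg(Aldh1l1-eGFP) OFC789Gsat on a Swiss Webster background, so the controls carried the reporter too. Brains were dissociated with papain and cells were sorted for green fluorescence, which regulatory sequences of Aldh1l1 drive in astrocytes. About 20 ng of RNA went through 2 cycles of amplification. The other 15 arrays (7 days after surgery, lipopolysaccharide and saline) entered only the estimate of the spread. Arrays are numbered as biological replicates but no mouse is named for any of them, so a p-value reflects the array-to-array spread, which may be technical.

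Astrocytes become reactive after ischaemia, with changes in intermediate filaments, secreted proteins and metabolism. Early after an injury, cells commonly switch on protective programmes, among them the antioxidant genes of the transcription factor NRF2, heat shock proteins, the unfolded protein response and the making of ribosomes. Proliferation of glial cells around a lesion usually comes later, and its transcripts include the kinases, cyclins, kinetochore proteins and spindle proteins that dividing cells make in G2 and mitosis.

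Levels are log2 of the deposited probe set intensities, and a difference is in log2 units, so that 1 unit is 2-fold. Array 3 of both 3-day groups stood apart. MCAO array 3 correlated across genes with sham array 3 at r = 0.983, against 0.946 and 0.949 with the other MCAO arrays of that day and 0.962 and 0.966 with the other sham arrays. Both of these arrays and all 9 arrays of the 1-day groups were bright, with a highest intensity of 31338 to 35230, while arrays 1 and 2 of both 3-day groups reached 20311 to 24192. Results are therefore given with all arrays and without array 3 of both 3-day groups. In the second form the 3-day arrays are all dim and the 1-day arrays all bright, so that time and array set cannot be told apart beyond what the subtraction of sham removes. A further value, from the 16 bright arrays of the series alone (highest intensity above 30000), sets 1 MCAO against 1 sham array at 3 days and assumes that they vary like the other groups. Sham array 3 of the 1-day group was also high for several injury genes. Astrocyte markers averaged 12.95 to 13.25 after MCAO and 12.95 to 13.41 after sham surgery at 3 days, and 13.37 to 13.53 and 13.55 to 13.64 at 1 day, so the labelled cell type was present on every array.

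With all arrays the difference of effects was called for 1 of 15726 genes by limma, at a Benjamini-Hochberg adjusted p under 0.05. Hmox1 was lower (0.00636% of genes tested) and 0 genes were higher (0%), while 942 had an unadjusted p under 0.05. Without array 3 of both 3-day groups 63 genes were higher (0.401%) and Hmox1 alone was lower (0.00636%), with 793 at an unadjusted p under 0.05. Left out one at a time, the 15 arrays gave 0 to 27 calls. The count was 27 without sham array 3 of day 3, 21 without MCAO array 2 of day 3, and 0 without MCAO array 1 or sham array 1, 2 or 4 of day 1 or sham array 2 of day 3. It was 7, 3 and 10 without MCAO array 3, 4 or 5 of day 1, 4 without sham array 3 of day 1, and 9 without MCAO array 3 of day 3. The median difference over all genes was 0.06 and, without array 3, 0.05. With all arrays 9042 genes had a positive and 6684 a negative difference, and without array 3 8829 and 6897.

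More genes were called for the MCAO effect at 1 day. MCAO against sham gave 96 genes higher (0.61%) and 10 lower (0.0636%) at 3 days, or 483 higher (3.07%) and 149 lower (0.947%) without array 3. At 1 day 1021 genes were higher (6.49%) and 970 lower (6.17%). Of the 96 genes higher at 3 days 58 were also higher at 1 day, which is 60.4% of the 3-day genes and 5.7% of the 1-day genes. Without array 3 it was 261 of 483, or 54.0% and 25.6%. The 1021 genes had a median effect of 0.51 at 3 days, 0.79 without array 3, and 1.13 at 1 day, the day that chose them. For the 970 genes lower at 1 day the medians were -0.42, -0.58 and -0.94.

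**Figure D1:**
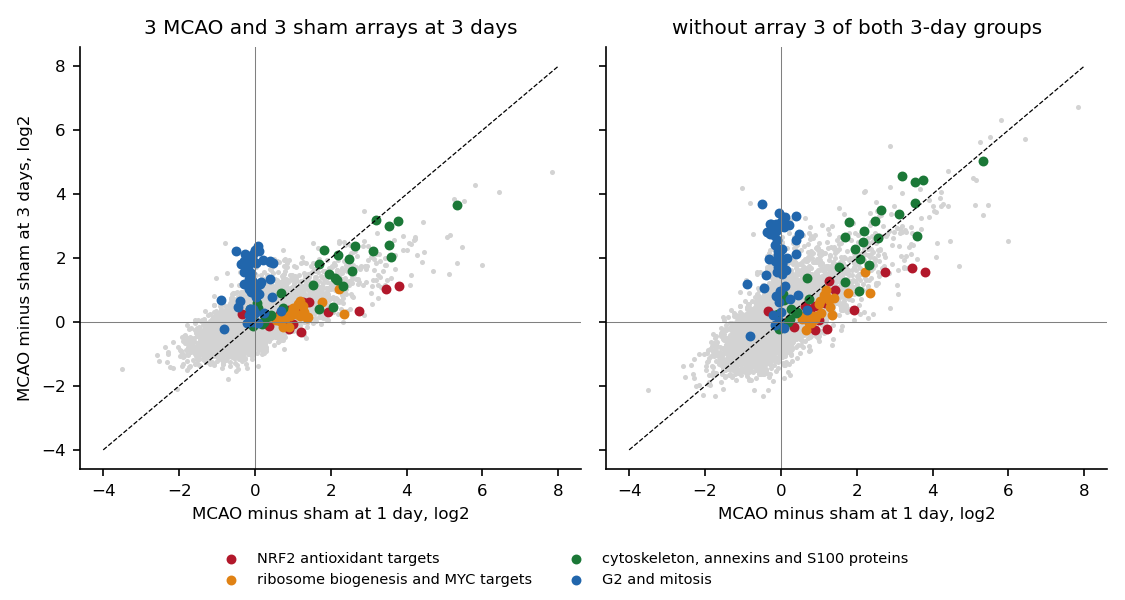
MCAO-minus-sham effect at 3 days (vertical, log2) against that at 1 day (horizontal, log2) for each of 15726 genes in grey, with all arrays on the left and without array 3 of both 3-day groups on the right. Coloured points are 4 gene lists and the dashed line marks equal effects. Most mitotic genes (blue) lie above the line at a 1-day effect near 0, while all but 1 of the NRF2 targets (red) and all of the ribosome biogenesis genes (orange) lie below it in the left panel.

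The one gene called with all arrays belongs to the NRF2 antioxidant targets. Hmox1 encodes haem oxygenase, which breaks down haem and is a classical NRF2 target. It had log2 levels of 7.10, 8.73 and 7.23 after MCAO and 6.23, 6.48 and 6.98 after sham surgery at 3 days. At 1 day the levels were 10.84, 9.85, 10.88, 9.65 and 10.12 after MCAO and 6.51, 6.38, 6.67 and 6.32 after sham surgery. Every MCAO array lay above the sham arrays of its day, and all 3-day MCAO arrays lay below all 1-day MCAO arrays. The MCAO effect was 1.12 at 3 days (adjusted p = 0.139), or 1.56 and called without array 3 (0.0237), and 3.80 at 1 day (2.21e-09). The difference was -2.67 ± 0.44 SE (adjusted p = 0.0249). Without array 3 it was -2.24 ± 0.48 (0.0308), and in the bright arrays alone -3.55, adjusted p = 0.0297. The call ended with the 4 groups fitted alone (adjusted p = 0.132) and with the arrays' numbers as a replicate block (0.193 for title and 0.164 for description numbers). It also ended without MCAO array 1 of either day, without sham array 1, 2 or 4 at 1 day, and without sham array 2 at 3 days (0.0626 to 0.0986). The difference itself ran from -3.19 to -2.38 when the 15 arrays were left out one at a time.

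Srxn1 encodes sulfiredoxin, which restores oxidised peroxiredoxins. Its levels at 3 days were 9.66, 10.52 and 9.06 after MCAO and 8.24, 8.57 and 9.36 after sham surgery. Those at 1 day were 12.07, 10.88, 11.87, 10.46 and 11.64 after MCAO and 7.80, 7.62, 8.40 and 7.91 after sham surgery. The groups were far apart at 1 day, while at 3 days sham array 3 lay above MCAO array 3. The difference of -2.43 ± 0.49 was not called (adjusted p = 0.0733). Without array 3 the difference was -1.77 (0.213), and the MCAO effect at 3 days was 1.685 and called (adjusted p = 0.0198). Gclm, a subunit of the enzyme that starts glutathione synthesis, had a difference of -1.51 (adjusted p = 0.223). For Osgin1, an oxidative stress response gene, it was -1.61 (0.286), and for Slc7a11, the cystine transporter that feeds glutathione synthesis, -1.07 (0.488).

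Of the 16 NRF2 targets measured 15 had a negative difference, and the list's median was -0.78, against 0.06 over all genes. Nqo1, a quinone reductase, was the exception at 0.58. Hmox1 was the one member called. In the effects themselves 10 of the 16 were higher at 1 day (6.49% of all genes), against 0 at 3 days (0.61%), or 2 without array 3 (3.07%). Compared within a treatment, 9 were lower in MCAO at 3 days than in MCAO at 1 day (9.03% of all genes) and 0 in sham at 3 days than in sham at 1 day (3.55%). The median was -0.55 without array 3 and -1.35 in the bright arrays alone, negative in all 3 forms, which share the 1-day arrays.

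Genes that make ribosomes also had larger fitted effects at 1 day. All 22 members of the list of ribosome biogenesis and MYC targets had a negative difference, from -2.09 to -0.44 with a median of -0.75 (-0.65 without array 3 and -1.14 in the bright arrays alone). None was called by limma with all arrays (0.00636% of all genes were lower), and 9 had an unadjusted p under 0.05. At 3 days 0 were higher after MCAO, with or without array 3, and at 1 day 16 were, against 0.61% of all genes at 3 days, 3.07% without array 3 and 6.49% at 1 day. Within MCAO 6 were lower at 3 days than at 1 day (9.03% of all genes), and the median change was -0.47. Within sham 2 were higher at 3 days (2.6%), and the median change was 0.30. Part of the difference thus lay in the sham arrays. Nop58, a core protein of the particles that guide RNA methylation, had 3-day levels of 7.67, 8.08 and 6.92 after MCAO and 6.93, 7.03 and 7.95 after sham surgery. Its 1-day levels were 10.01, 9.30, 8.79, 9.30 and 8.98 after MCAO and 6.93, 7.16, 7.06 and 6.58 after sham surgery. The groups overlapped at 3 days and did not at 1 day, and the difference was -2.09 ± 0.66 (adjusted p = 0.488). Rrp12 (-1.13, adjusted p = 0.318), which acts in export of ribosomal subunits, Nip7 (-1.23, 0.488) and the nucleolar GTPase gene Gnl3 (-0.98, 0.338) had smaller differences.

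Pprc1 and Utp20 were among the 15 genes with the smallest p for a negative difference with all arrays, and Mdn1 without array 3, and none of them is in a list used here. Pprc1, a coactivator of the PGC-1 family, had 3-day levels of 8.40, 8.85 and 8.32 after MCAO and 8.44, 8.37 and 8.84 after sham surgery, and 1-day levels of 10.13, 9.66, 9.25, 9.32 and 9.06 after MCAO and 8.07, 7.68, 8.35 and 7.71 after sham surgery. All 1-day MCAO arrays lay above the rest, and the difference was -1.56 ± 0.32 (adjusted p = 0.0733). Utp20, of the small subunit processome, had -1.39 ± 0.33 (0.125). Mdn1, an ATPase of large subunit maturation, had -1.07 (0.488), and -1.26 (0.133) without array 3.

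**Figure D2:**
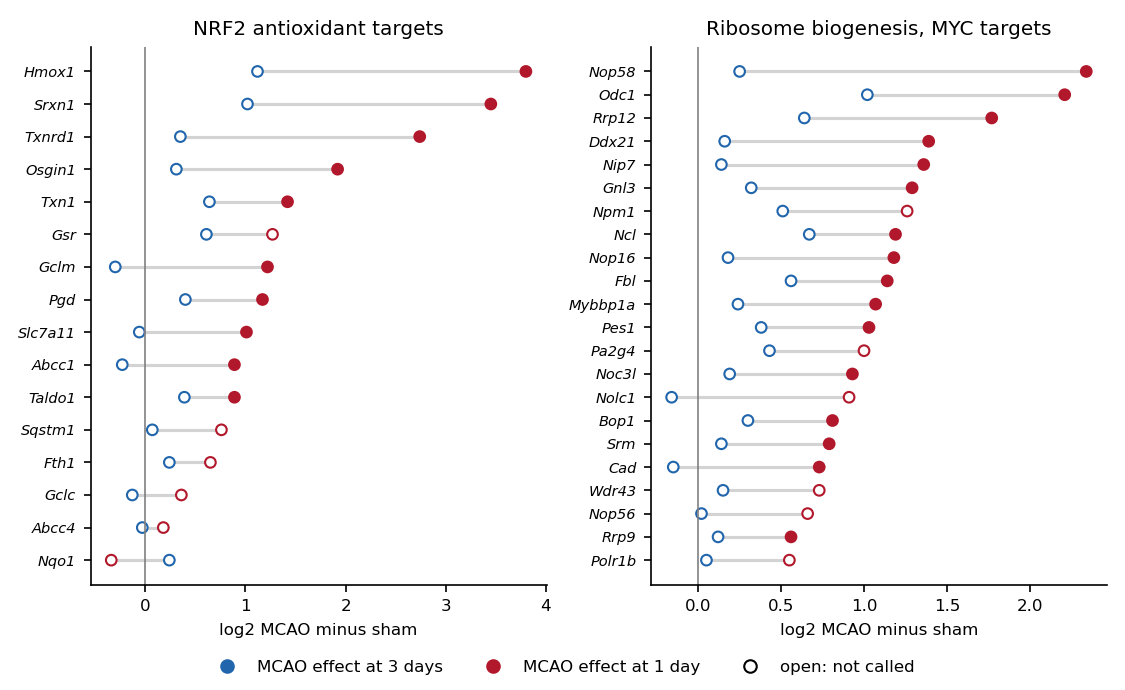
Log2 MCAO-minus-sham effect of each NRF2 target (left panel) and each ribosome biogenesis gene (right panel), at 3 days in blue and at 1 day in red, all arrays. Filled points were called by limma at adjusted p under 0.05 and open points were not. No 3-day point is filled, 10 and 16 of the 1-day points are, and Nqo1 alone has its 3-day effect to the right of its 1-day effect.

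Heat shock and unfolded protein response genes had smaller medians. Of 16 heat shock proteins and co-chaperones 15 had a negative difference (median -0.43), 1 was higher at 3 days (0.61% of all genes) and 6 at 1 day (6.49%). The 3-day gene was Hspb1, a small heat shock protein, with an effect of 2.66 at 3 days (adjusted p = 0.0443) and 4.22 at 1 day (3.9e-06). Hsph1, a co-chaperone of heat shock protein 70, had 0.30 (0.973) and 1.24 (0.00297). Of 26 ATF4 and unfolded protein response genes 19 had a negative difference (median -0.34). Chac1, which degrades glutathione and is an ATF4 target, had an effect of 1.59 at 3 days (0.128) and 3.37 at 1 day (1.36e-06), a difference of -1.78 (0.551).

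Cytokine signalling and early transcription factors depended more on array 3. Interleukin-6 family and STAT3 genes had a negative difference in 14 of 16 cases, with a median of -0.74, or -0.19 without array 3. Il6 itself had a difference of -2.26 (adjusted p = 0.683), its relative Clcf1 -1.62 (0.749) and the transcription factor gene Cebpd -1.52 (0.788). Without array 3 these were -1.91, -0.15 and -0.965. From 1 to 3 days the 3 genes changed by -2.18, -1.11 and -0.24 within MCAO. Within sham they changed by 0.08, 0.505 and 1.29, so that the difference for Cebpd lay mostly in the sham arrays. The 21 AP-1 and immediate early genes had a median of -0.22, and 0.08 without array 3, so its sign turned. Fosl1, an AP-1 subunit, was higher on both days (2.14 at 3 days and 3.28 at 1 day). No member of these 4 stress and signalling lists was called for the difference by limma, with all arrays or without array 3. With all arrays 1, 5, 3 and 2 of their members, in the order given, had an unadjusted p under 0.05, and without array 3 0, 3, 1 and 0 did.

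Growth arrest genes were mixed, with 10 of 15 differences negative and a median of -0.22 (0.01 without array 3). Gadd45b, a stress sensor, had an effect of 1.42 at 3 days (adjusted p = 0.285) and 3.30 at 1 day (8.99e-06). Cdkn1a, the cyclin-dependent kinase inhibitor p21, had 1.44 (0.334) and 2.56 (0.000403). Myc, of the immediate early list, encodes a transcription factor that drives ribosome making, and had 0.42 (0.85) and 1.35 (0.000742). These 3 genes were higher at 1 day, and their differences of -1.88, -1.12 and -0.93 had adjusted p of 0.608, 1 and 0.773.

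Gpat3, Steap4 and Fads3 were also among the 15 smallest p for a negative difference and were not called. Gpat3, an acyltransferase at the start of glycerolipid synthesis, had 3-day levels of 5.67, 6.28 and 5.13 after MCAO and 4.64, 5.0 and 4.70 after sham surgery. The 1-day levels were 8.32, 7.59, 7.86, 7.38 and 7.76 after MCAO and 4.58, 4.58, 5.17 and 4.58 after sham surgery. All 1-day MCAO arrays lay well above all others, and the difference was -2.14 ± 0.40 (adjusted p = 0.0733, or 0.0564 without array 3). Steap4, a metalloreductase of iron and copper uptake, had 3-day levels of 6.48, 7.81 and 6.32 after MCAO and 4.39, 4.81 and 6.04 after sham surgery. At 1 day it had 11.47, 11.21, 11.27, 11.39 and 11.46 after MCAO and 4.95, 5.0, 6.41 and 5.09 after sham surgery. The 3-day MCAO arrays lay far below the 1-day MCAO arrays, and the difference was -4.21 ± 0.91 (0.0733). Fads3, of the fatty acid desaturase family, had -1.36 (0.0733). In the list of metallothioneins and zinc 3 of 6 genes had a negative difference (median -0.11), the zinc and iron importer gene Slc39a14 having -1.74 (0.551).

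Genes for secreted and surface proteins were also among the 15 most negative differences by p, of which limma called Hmox1 alone with all arrays. Adam12, a disintegrin metalloproteinase, had an effect of 1.12 at 3 days and 3.08 at 1 day (difference -1.96 ± 0.41, adjusted p = 0.0733). Adamts5, an aggrecanase, had 0.80 and 2.56 (-1.75 ± 0.39, 0.084). The protease inhibitor gene Tfpi2 had 0.02 and 2.31 (-2.30 ± 0.52, 0.096), and Tnfsf11, which encodes the ligand RANKL, 0.24 and 2.20 (-1.96 ± 0.43, 0.0742). These 4 genes were higher at 1 day and were not called at 3 days with all arrays, while without array 3 Adam12 (adjusted p = 0.0067) and Adamts5 (0.0355) were. Sez6l (-1.67), the channel family gene Calhm5 (-1.51) and AI506816 (-2.64) all had adjusted p = 0.0733, and 6430553K19Rik (-1.87) had 0.084. The neurotrophin gene Bdnf had -2.07 ± 0.55 (0.252). Among list members, the growth factor gene Hbegf had -1.08 (0.749), the hyaluronan receptor gene Cd44 -2.05 (0.64) and the aggrecanase gene Adamts4 -1.57 (0.683).

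The bright arrays alone gave more calls in this direction, 47 genes lower (0.299%) and 11 higher (0.0699%). All 47 had a negative difference with all arrays, 42 had one without array 3, and 41 were higher at 1 day. Beside Hmox1 they included Lcn2 (-7.21, adjusted p = 0.0171), Steap4 (-5.72, adjusted p = 0.00797), Srxn1 (-3.75, adjusted p just under the threshold), Calhm5 (-2.51, adjusted p = 0.0297), Cd44 (-4.59, adjusted p = 0.0345) and Clcf1 (-4.55, adjusted p = 0.0161). They also held Fosl1 (-2.60, adjusted p = 0.0343), Utp20 (-2.13, adjusted p = 0.0433), the actin crosslinker gene Flna (-2.49, adjusted p = 0.0297) and Cdk6, which encodes a G1 kinase (-3.61, adjusted p = 0.0428). These values rest on the 2 arrays of day 3 that resembled each other. Each form subtracts the same 1-day effect, and the form with all arrays includes this pair. Shared signs and a high 1-day effect among these genes are thus partly built in. Over all genes 6.49% were higher at 1 day.

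**Figure D3:**
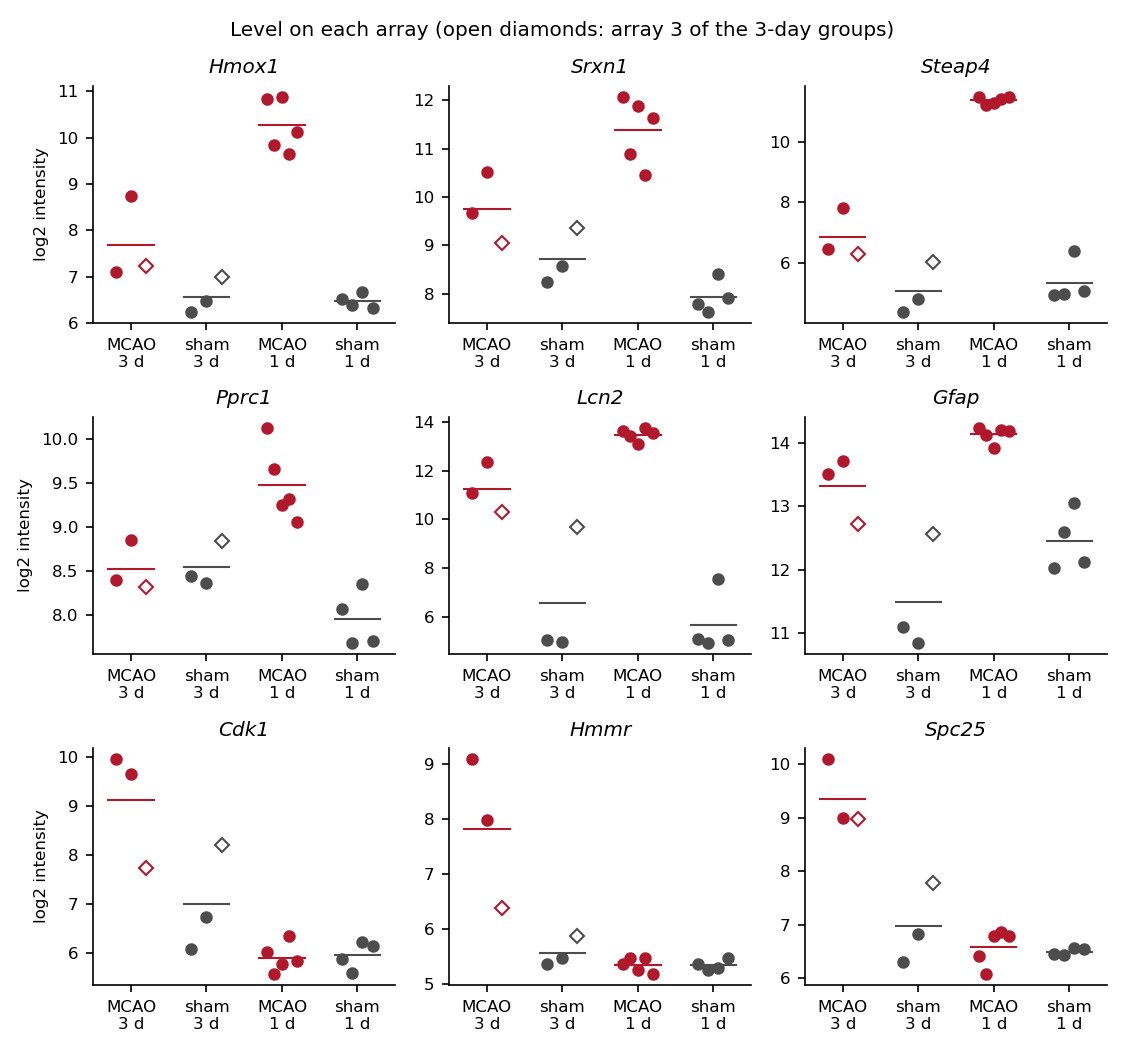
Log2 intensity of 9 genes on each of the 15 arrays, MCAO in red and sham in grey, with the 3-day groups left of the 1-day groups in each panel. Horizontal lines are group means and open diamonds are array 3 of the 3-day groups. Hmox1, Srxn1, Steap4 and Pprc1 are highest after MCAO at 1 day, and Cdk1, Hmmr and Spc25 are highest in the 3-day MCAO group.

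The structural reactive response was not told apart between the days by the test. Gfap, the intermediate filament gene that marks reactive astrocytes, had 3-day levels of 13.51, 13.72 and 12.72 after MCAO and 11.09, 10.84 and 12.56 after sham surgery. Its levels at 1 day were 14.24, 14.13, 13.92, 14.21 and 14.19 after MCAO and 12.03, 12.60, 13.05 and 12.12 after sham surgery. MCAO arrays lay above sham arrays on both days, by little in the array 3 pair. The difference was 0.13 ± 0.63 (adjusted p = 1), and its sign turned in some alternatives. Vim, another intermediate filament gene, had -0.90 ± 0.78 (1), and 0.27 ± 0.67 (1) without array 3. Serpina3n, which encodes a secreted protease inhibitor, was higher on both days and had -1.35 ± 0.53 (0.683). Aldh1l1, whose regulatory sequences drive the reporter, had 0.35 ± 0.49 (1).

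Lcn2 encodes an acute phase protein that binds iron carriers. It had 3-day levels of 11.07, 12.36 and 10.32 after MCAO and 5.04, 4.95 and 9.70 after sham surgery, and 1-day levels of 13.61, 13.42, 13.08, 13.76 and 13.53 after MCAO and 5.09, 4.91, 7.55 and 5.04 after sham surgery. Sham array 3 of day 3 lay far above the other sham arrays and just below its MCAO partner. The difference was -3.15 ± 1.08 (adjusted p = 0.553) with all arrays and -1.12 ± 0.83 (1) without array 3 of both groups, while in the bright arrays alone Lcn2 was lower, at -7.21, adjusted p = 0.0171.

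Among 32 genes of the cytoskeleton, annexins and S100 proteins 8 were higher at 3 days (0.61% of all genes), 19 without array 3 (3.07%), and 20 at 1 day (6.49%). The median difference was -0.28 with all arrays, 0.24 without array 3 and -1.76 in the bright arrays alone. None was called for the difference by limma in the first 2 forms, where 5 and 0 had an unadjusted p under 0.05. S100a10, the partner of annexin A2, was higher on both days (3.66 at 3 days and 5.33 at 1 day, difference -1.67, adjusted p = 0.791). The actin crosslinker genes Flnc (-1.56) and Flna (-1.20) had adjusted p = 0.488 each. Lists that the study chose on these samples are no independent evidence of direction. In them 12 of 13 pan-reactive genes had a negative difference (median -1.64, or -0.58 without array 3), and 12 of 12 MCAO-type genes (median -2.47, or -0.75), with 0 called by limma in these 2 forms and 6 and 10 at an unadjusted p under 0.05 with all arrays. In the bright arrays alone 3 pan-reactive (median -3.71) and 5 MCAO-type genes (median -5.62) were lower, against 0.299% of all genes.

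A group of positive differences came from genes that were lower after MCAO at 1 day and had an effect near 0 or above at 3 days. St8sia1, which makes the ganglioside GD3, had 3-day levels of 7.02, 7.71 and 8.10 after MCAO and 7.56, 7.53 and 7.58 after sham surgery. By contrast its 1-day levels were 6.13, 6.49, 6.39, 6.78 and 6.23 after MCAO and 7.56, 7.74, 8.42 and 8.23 after sham surgery. The groups overlapped at 3 days and were apart at 1 day, and the difference was 1.64 ± 0.33 (adjusted p = 0.0733). The peroxisomal membrane protein gene Pxmp2 (1.41), the E2F partner gene Tfdp2 (1.26) and the ubiquitin ligase gene Fbxo32 (1.41) also had adjusted p = 0.0733, and Ccdc34 (1.61) had 0.142. Each of these 5 genes was lower at 1 day, with effects of -1.58 to -0.86, and none was called at 3 days.

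Homeostatic astrocyte genes had the same direction. Of 33 genes 30 had a positive difference, with a median of 0.21 (0.13 without array 3, where 22 were positive, and 0.50 in the bright arrays alone). After MCAO 1 was lower at 3 days (0.0636% of all genes), 5 without array 3 (0.947%), and 11 at 1 day (6.17%). The list's median change from 1 to 3 days was -0.13 within MCAO and -0.355 within sham. The positive median difference thus came with a fall in sham and not with a rise after MCAO. Within MCAO 4 members were higher at 3 days than at 1 day (11.1% of all genes) and 2 lower (9.03%). Gdf10, whose product is a TGF-beta family ligand, had an effect of -1.47 at 3 days (adjusted p = 0.196) and -3.50 at 1 day (1.39e-06), a difference of 2.03 ± 0.63 (0.47). Dhrs3, a retinal reductase, had -1.03 (0.189) and -2.58 (4.32e-07), a difference of 1.56 ± 0.43 (0.286). Of 19 cholesterol synthesis genes 16 had a positive difference (median 0.26), among them Mvd (1.11, adjusted p = 0.71) and Tm7sf2 (0.94, 0.685). Tm7sf2 was higher in the bright arrays alone (1.39, adjusted p just under the threshold). After MCAO 0 members of the list were lower at 3 days (0.0636% of all genes), 1 without array 3 (0.947%), and 5 at 1 day (6.17%). Its median change from 1 to 3 days was 0.04 within MCAO and -0.38 within sham. The glycolytic enzyme gene Pfkl had a difference of 1.00 (0.685), with changes of 0.32 within MCAO and -0.68 within sham.

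Genes of cell division led those called higher without array 3. Cdk1, the kinase that drives entry into mitosis, had 3-day levels of 9.97, 9.65 and 7.74 after MCAO and 6.07, 6.74 and 8.20 after sham surgery. One-day levels of Cdk1 were 6.02, 5.56, 5.76, 6.34 and 5.83 after MCAO and 5.88, 5.58, 6.23 and 6.13 after sham surgery. At 3 days MCAO arrays 1 and 2 were the highest, and sham array 3 lay above MCAO array 3. At 1 day the groups overlapped. The difference was 2.17 ± 0.64 (adjusted p = 0.354) with all arrays, 3.46 ± 0.53 (0.00089) without array 3 and -0.40 (0.846) in the bright arrays alone.

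Hmmr encodes a hyaluronan receptor that also acts at the mitotic spindle. It had 9.09, 7.98 and 6.38 after MCAO and 5.36, 5.46 and 5.86 after sham surgery at 3 days, and 5.36, 5.46, 5.25, 5.46 and 5.17 after MCAO and 5.36, 5.25, 5.28 and 5.46 after sham surgery at 1 day. Every 3-day MCAO array lay above every other array, array 3 included. The difference was 2.26 ± 0.48 (adjusted p = 0.0733) with all arrays and 3.13 ± 0.35 (6.75e-05) without array 3. Spc25, a subunit of the Ndc80 kinetochore complex, had 10.10, 8.99 and 8.97 after MCAO and 6.30, 6.82 and 7.78 after sham surgery at 3 days, and 6.41, 6.07, 6.79, 6.86 and 6.79 after MCAO and 6.44, 6.43, 6.57 and 6.54 after sham surgery at 1 day. Its 3-day MCAO arrays were again the 3 highest, and the difference was 2.30 ± 0.44 (0.0733), or 2.89 ± 0.44 (0.00089) without array 3. The phosphatase gene Cdkn3 had 1.39 (0.0733), or 1.69 (0.00237).

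Of 54 measured genes of G2 and mitosis 52 had a positive difference, with a median of 1.24 with all arrays, 2.15 without array 3 and -0.22 in the bright arrays alone. None was called by limma with all arrays (0% of all genes were higher), where 37 had an unadjusted p under 0.05, and 27 were higher without array 3 (0.401% of all genes). After MCAO 12 were higher at 3 days (0.61%), 38 without array 3 (3.07%), and 0 at 1 day (6.49%), where the median effect was -0.06. Compared within a treatment, 42 were higher in MCAO at 3 days than in MCAO at 1 day (11.1% of all genes) and 3 in sham at 3 days than in sham at 1 day (2.6%). Hmgb2, which encodes a chromatin protein (-0.36), and Tpx2, a spindle assembly factor (-0.10), were the members with a negative difference. In the array 3 pair the list's median MCAO effect was -0.30.

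The mean level of the list by array was 8.68, 8.25 and 7.54 after MCAO and 6.38, 6.65 and 7.80 after sham surgery at 3 days, and 6.04 to 6.42 after MCAO and 6.09 to 6.30 after sham surgery at 1 day. All 3 MCAO arrays and sham arrays 2 and 3 of day 3 lay above all 1-day arrays, and array 3 of both groups lay between the first 2 MCAO and the first 2 sham arrays.

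**Figure D4:**
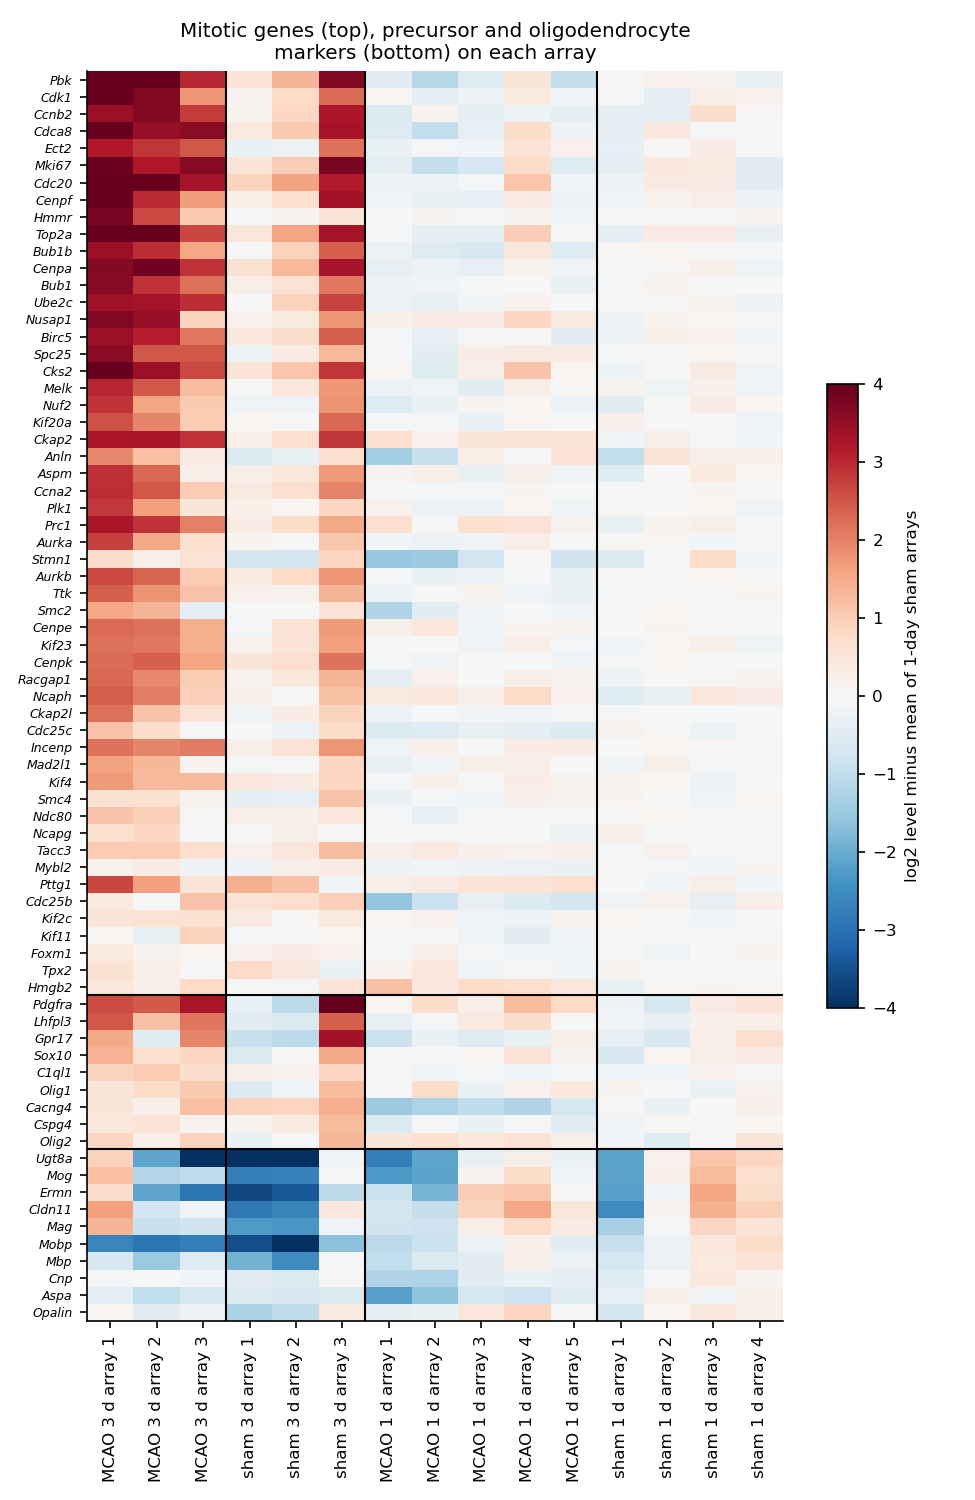
Log2 level of each gene (down the page) on each array (across) minus its mean on the 4 sham arrays of 1 day, for G2 and mitosis genes in the top block, oligodendrocyte precursor markers in the middle block and oligodendrocyte markers in the bottom block. Columns run MCAO and sham at 3 days, then MCAO and sham at 1 day, and the colour scale ends at 4 units either way. Mitotic genes are mostly highest on MCAO arrays 1 and 2 of day 3, and sham array 3 of day 3 is high for mitotic genes and precursor markers.

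The 63 genes called higher without array 3 had differences from 1.14 to 4.52. The largest was that of Rrm2, the small subunit of ribonucleotide reductase, which makes DNA precursors (4.52 ± 0.74, adjusted p = 0.00207). Its 3-day levels were 11.31, 10.62 and 9.91 after MCAO and 7.03, 7.47 and 9.91 after sham surgery, equal in the array 3 pair, and its 1-day levels 5.83, 5.70, 6.71, 7.03 and 6.93 after MCAO and 6.66, 7.48, 7.48 and 7.37 after sham surgery. Next came the mitotic kinase gene Pbk (4.19), Cdk1, the cyclin gene Ccnb2 (3.35), Cep55 of the midbody (3.34) and the cytokinesis exchange factor gene Ect2 (3.23). The centromere protein gene Cenpf (3.17), the anaphase activator gene Cdc20 (3.17), Hmmr, the checkpoint kinase gene Bub1b (3.03) and the centromeric histone gene Cenpa (3.01) followed. Behind them stood the ubiquitin-conjugating enzyme gene Ube2c (2.98), Bub1 of the spindle checkpoint (2.98), the cohesin regulator gene Cdca5 (2.94) and the spindle gene Nusap1 (2.92). Adjusted p for these genes ran from 6.75e-05 to 0.0217. With the mean of its probe sets, Cenpa had 0.97 (0.0806).

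Of the 63 genes 29 belong to the cell cycle lists used here and 34 to none of them. The 34 include Cep55, Cdca5, Cdkn3, the shugoshin gene Sgo2a (2.13, adjusted p = 0.00089) and the histone chaperone gene Asf1b (1.20, 0.0225), which also act in the cycle. Under median centring Asf1b was not called (1.06, 0.0892). Katnal2 was the one gene of the 63 called at 1 day, where it was lower. With all arrays all 63 had a positive difference, from 0.59 to 3.28, but that form shares arrays with the one that chose them. In the array 3 pair, which did not choose them, the MCAO effect at 3 days was positive for 26 and negative for 36, from -1.66 to 1.94, and 0 for Rrm2. In the bright arrays alone 23 had a positive difference and 1 was higher (0.0699% of all genes). It was Dscc1, of the clamp loader for sister chromatid cohesion (1.89, adjusted p = 0.0468). Its 3-day levels were 6.46, 5.86 and 7.37 after MCAO and 4.25, 4.58 and 5.43 after sham surgery, with MCAO array 3 the highest, and its 1-day levels 4.0, 4.0, 3.91, 4.09 and 3.91 after MCAO and 3.91, 4.0, 3.91 and 3.91 after sham surgery.

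Promoters are shown for 4 mitotic genes called higher without array 3, because 2 short motifs are known from the promoters of such genes. The motifs are the cell cycle homology region TTTGAA and the CCAAT box. In the array 3 pair the MCAO effect was negative for Cdk1 (-0.46) and Ccnb2 (-0.45). It was positive for Hmmr (0.52) and Spc25 (1.19). Sequences are RefSeq promoters of GRCm38.p6, from 250 bases before to 50 after the gene start, 5′ to 3′ on the gene's strand, with capitals marking TTTGAA and CCAAT on either strand.
Cdk1 (chr10:69352863-69353162, minus strand): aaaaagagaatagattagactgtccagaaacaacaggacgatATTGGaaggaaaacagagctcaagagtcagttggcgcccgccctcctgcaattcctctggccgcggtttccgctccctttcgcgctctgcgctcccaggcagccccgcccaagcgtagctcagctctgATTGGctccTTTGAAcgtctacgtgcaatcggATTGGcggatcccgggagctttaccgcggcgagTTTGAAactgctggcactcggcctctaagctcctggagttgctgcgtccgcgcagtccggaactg
Ccnb2 (chr9:70421505-70421804, minus strand): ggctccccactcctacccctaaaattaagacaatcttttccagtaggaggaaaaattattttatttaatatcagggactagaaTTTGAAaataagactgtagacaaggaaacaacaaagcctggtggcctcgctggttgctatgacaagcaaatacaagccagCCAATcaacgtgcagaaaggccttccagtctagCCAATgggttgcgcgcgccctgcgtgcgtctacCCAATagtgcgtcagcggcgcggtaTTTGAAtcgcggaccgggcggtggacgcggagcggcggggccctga
Hmmr (chr11:40733388-40733687, minus strand): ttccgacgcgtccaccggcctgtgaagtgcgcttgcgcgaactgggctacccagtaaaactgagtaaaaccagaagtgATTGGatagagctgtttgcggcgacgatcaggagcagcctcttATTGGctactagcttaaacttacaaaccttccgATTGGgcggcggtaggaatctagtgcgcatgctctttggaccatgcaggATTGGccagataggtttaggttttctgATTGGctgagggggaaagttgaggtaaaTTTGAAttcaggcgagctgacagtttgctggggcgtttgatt
Spc25 (chr2:69206164-69206463, minus strand): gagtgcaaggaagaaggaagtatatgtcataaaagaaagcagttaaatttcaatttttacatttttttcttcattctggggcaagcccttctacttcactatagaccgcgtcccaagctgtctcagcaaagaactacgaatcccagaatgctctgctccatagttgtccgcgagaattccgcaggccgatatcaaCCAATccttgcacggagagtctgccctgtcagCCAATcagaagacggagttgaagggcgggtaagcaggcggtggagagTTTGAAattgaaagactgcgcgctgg
Cdk1 and Ccnb2 each held 2 TTTGAA and 3 CCAAT matches, Hmmr 1 and 5, and Spc25 1 and 2.

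In the list of G2 and mitosis 44 of 54 genes had a promoter in the RefSeq table, matched by symbol, and the first start listed was used. TTTGAA was found on either strand in 30 of the 44 (68.2%), against 12.1% of the promoters of the 12562 tested genes that had one. CCAAT was found in 32 (72.7%), against 38.1% of all. The E2F-like letters GGCGGGAA were found in 0 of the 44, against 3.57% of all, and in 5 of 25 DNA replication genes (20%). Of the 63 later genes, 27 of which are in the mitotic list, 53 had a promoter, with TTTGAA in 56.6% and CCAAT in 73.6%. The core TGACNNNGC of the antioxidant response element was found in 3 of 12 NRF2 targets (25%), against 14.2% of all. It was also found in 24% of DNA replication genes, 20.5% of mitotic genes, 20.8% of the later genes and 5.88% of ribosome biogenesis genes. Its share was thus not particular to NRF2 targets. None of the motifs contains another, and a match describes letters, not a site in use.

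DNA replication genes had a smaller median difference than the mitotic genes. Of 29 genes 23 had a positive difference, with a median of 0.61, and 1.05 without array 3. In that form 2 were higher (0.401% of all genes), Rrm2 and the thymidine kinase gene Tk1 (2.84 ± 0.38, adjusted p = 0.000445). After MCAO 0 were higher at 3 days with all arrays (0.61% of all genes), 17 without array 3 (3.07%), and 1 at 1 day (6.49%). The replication helicase genes Gins2 (1.05, or 1.65 without array 3) and Mcm2 (0.37, or 1.29) were not called for the difference in either form. The 20 G1/S regulators had a median of 0.21 (0.52 without array 3), with 0 called by limma in these 2 forms and 5 at an unadjusted p under 0.05 with all arrays. Among them E2f8, an E2F family repressor, had 0.86 (adjusted p = 0.609), or 1.28 (0.0616) without array 3, and Cdk6 had -2.11 (0.286).

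Some positive differences lay outside the cell cycle lists. Hacd4, an enzyme of very long chain fatty acid synthesis, had 3-day levels of 8.41, 8.40 and 8.34 after MCAO and 7.02, 6.97 and 7.70 after sham surgery. One-day levels were 5.25, 5.43, 5.95, 5.95 and 6.39 after MCAO and 6.09, 6.34, 6.04 and 6.43 after sham surgery. All 3-day MCAO arrays lay above the rest, and both 3-day groups lay above both 1-day groups. The difference was 1.59 ± 0.32 (adjusted p = 0.0733), and 1.84 ± 0.35 (0.00766) without array 3. Katnal2, of the microtubule-severing katanin family, had 1.49 (0.0733) and 1.76 (0.0151), and the ubiquitin ligase gene Neurl1b 1.40 (0.0997) and 1.62 (0.0392). Under quantile normalisation the calls for Katnal2 (0.113) and Neurl1b (0.139) ended, and that for Neurl1b also under median centring (0.0884) and without sham array 3 of day 1 (0.0824). Of 27 interferon-stimulated genes 11 had a positive difference with all arrays (median -0.11) and 19 without array 3 (median 0.30), while the median in the bright arrays alone was -1.29. Bst2, which encodes an antiviral membrane protein, had 1.33 (0.796), or 2.15 (0.216).

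Like the mitotic genes, oligodendrocyte precursor and oligodendrocyte markers were lowest at 3 days on sham arrays 1 and 2. Mitotic genes and precursor markers were also both higher on every MCAO array and on sham array 3 of that day than on any 1-day array. Among the 3-day arrays mitotic genes were highest on MCAO arrays 1 and 2, and precursor markers on the array 3 pair. Oligodendrocyte markers averaged 8.26 to 9.83 on the MCAO arrays of day 3 and 8.26 to 10.39 on the 1-day arrays. Oligodendrocyte precursor markers averaged 9.04, 8.52 and 9.15 after MCAO and 7.60, 7.62 and 9.75 after sham surgery at 3 days, and 7.49 to 7.98 after MCAO and 7.54 to 8.11 after sham surgery at 1 day. Of the 10 listed 9 were measured, 8 had a positive difference (median 0.55) and 9 did without array 3 (0.85), with 0 called by limma in either form and 0 and 5 at an unadjusted p under 0.05. Pdgfra, a receptor that defines precursors, had 3-day levels of 10.30, 10.12 and 10.96 after MCAO and 7.35, 6.60 and 11.82 after sham surgery, with sham array 3 the highest. Its 1-day levels were 7.75, 8.40, 7.94, 8.94 and 8.49 after MCAO and 7.48, 6.99, 8.02 and 8.23 after sham surgery. The difference was 1.24 ± 1.14 (adjusted p = 1), and 2.61 ± 0.94 (0.581) without array 3. Lhfpl3, another precursor marker, had 1.31 (0.923) and 2.17 (0.187). The part of such cells in the mitotic result was not tested, and in sorted pools fewer cells of a type cannot be told apart from less RNA per cell.

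Oligodendrocyte markers averaged 9.83, 8.33 and 8.26 after MCAO and 7.21, 7.11 and 9.32 after sham surgery at 3 days, and 8.29 to 10.06 after MCAO and 8.26 to 10.39 after sham surgery at 1 day. Of the 12 listed 10 were measured and 10 had a positive difference (median 1.24, or 2.12 without array 3), with 0 called by limma and 2 and 7 at an unadjusted p under 0.05. Ugt8a, which makes the myelin lipid galactocerebroside, had 2.42 ± 1.63 (adjusted p = 1), the myelin gene Mag 1.54 ± 0.80 (0.9) and Cnp, a myelin enzyme gene, 0.98 ± 0.31 (0.488).

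Other marker lists had median differences of 0.23 for microglia and macrophages, 0.05 for neutrophils and monocytes, 0.10 for endothelial cells, 0.16 for pericytes and smooth muscle, 0.37 for neurons, 0.20 for fibroblasts and meninges and -0.23 for neural progenitors and neuroblasts. Their levels moved with time in both treatments for some. Neuron markers averaged 7.43 to 7.49 after MCAO and 7.20 to 7.66 after sham surgery at 3 days, and 7.66 to 8.80 and 7.81 to 9.10 in the same order at 1 day. Endothelial markers averaged 6.39 to 6.60 after MCAO and 6.0 to 6.28 after sham surgery at 3 days, and 6.70 to 9.07 and 7.29 to 8.83 in the same order at 1 day. Fibroblast and meninges markers averaged 7.03 to 9.22 after MCAO and 7.37 to 9.31 after sham surgery at 3 days, and 6.61 to 7.77 and 6.84 to 7.12 in the same order at 1 day. Neuron and endothelial levels were thus mostly lower, and fibroblast levels mostly higher, on the 3-day arrays, as values without a test of the averages.

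**Figure D5:**
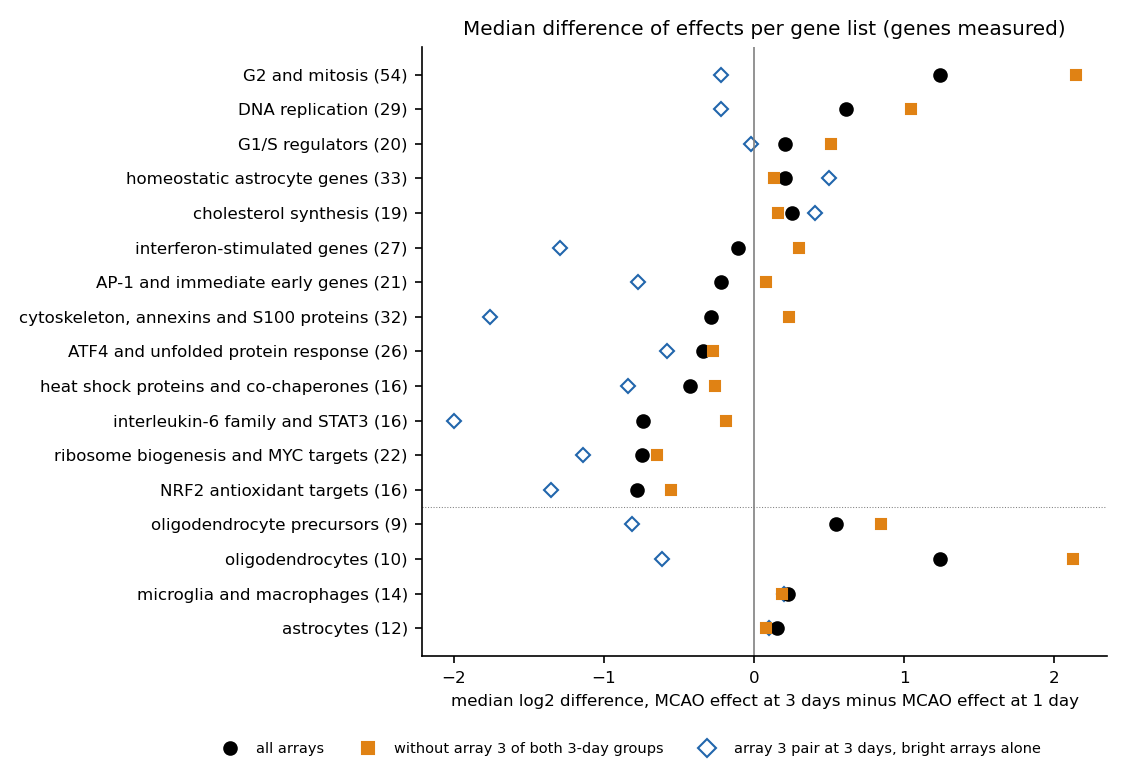
Median log2 difference of effects, MCAO effect at 3 days minus MCAO effect at 1 day, over the measured members (number in brackets) of 13 programmes and, below the dotted line, 4 marker lists. Circles are all arrays, squares leave out array 3 of both 3-day groups, and open diamonds are the bright arrays alone. All 3 forms use the same 1-day arrays. NRF2 and ribosome biogenesis medians are negative in all 3 forms, while mitotic, precursor and oligodendrocyte medians are positive in the first 2 forms and negative in the bright arrays.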

How the data were processed

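Expression was measured on 30 single-colour Affymetrix arrays, of which 15 make the comparison. The authors processed the arrays with RMA, per the submitters' processing notes, with version and settings not given in the sources used here. The deposited values are linear intensities per probe set, in whole numbers from 9 to 35553, for 45037 probe sets. The number of arrays limits the precision.

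From these the log2 of each intensity was taken with no further scaling. Of the probe sets 34945 had 1 gene symbol in the platform annotation, 932 had several and 9160 had none. Each gene was represented by the probe set with 1 symbol and the highest mean over all 30 arrays, and genes above a log2 of 5 on at least 3 arrays were kept, 15726 of 18193. Folds of genes close to that floor are uncertain in size. limma 3.58.1 in R 4.3.3 fitted 8 group means to the 30 arrays (22 residual degrees of freedom), and to 28 without array 3 of both 3-day groups, and p-values were adjusted by Benjamini-Hochberg over all genes. In simulated data of this size the fit recovered 73% of genes changed by 2 and 92% of those changed by 3 log2 units with all arrays. Without array 3 it recovered 64% and 89%. Among unchanged genes 12 were called with all arrays and 7 without array 3. Each simulated gene had the same spread in every group, and no array set was simulated. The shares therefore do not measure the power of the fit in the real 3-day arrays.

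Genes named were taken from the 15 with the strongest difference in each direction in both forms (called genes by size, then filled by smallest p), 5 markers, and up to 4 members per list with the smallest p. Genes named outside this rule, such as Nqo1, Hmgb2 and Tpx2, were chosen after their values were seen. The comparison, the lists and the named genes were chosen with earlier results of these data known.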

Additional observations from a re-analysis of the deposited data

Results flagged for a closer look

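Some single arrays lay far from the rest of their group, by Dixon's criterion in groups of 4 or 5, which chance alone meets in about 1 of 20 groups. Most were sham array 3 of the 1-day group. Its log2 level was 5.17 for Gpat3 (the others 4.58), 6.41 for Steap4 (4.95 to 5.09), 7.55 for Lcn2 (4.91 to 5.09), 6.15 for Tfpi2 (4.09 to 4.32) and 12.29 for Hsph1 (11.44 to 11.57). It was 9.53 for Hspb1 (8.06 to 8.11), 6.41 for AI506816 (4.95 to 5.17), 11.76 for Vim (9.71 to 9.94), 11.3 for Serpina3n (9.99 to 10.15) and 7.86 for Flnc (7.14 to 7.25). The same array averaged 8.55 for interleukin-6 family and STAT3 genes (the others 7.78 to 7.87), 11.3 for glycolysis and hypoxia (10.7 to 10.79), 9.1 for neuron markers (7.81 to 8.0) and 8.83 for endothelial markers (7.29 to 7.53). Without this array the difference of effects was called for 4 genes with all other arrays, and for 54 without array 3 of both 3-day groups.

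Other 1-day sham arrays stood apart for Cdca5 (array 2 at 6.25, the others 5.09 to 5.25) and Rrm2 (array 1 at 6.66, the others 7.37 to 7.48). The criterion was also met for Dscc1 (array 2 at 4.0, the others tied at 3.91), a small step at levels below the floor of 5. In the 1-day MCAO group, array 5 had 5.29 for Tnfsf11 (the others 6.32 to 6.69), and array 1 had 9.74 for Nip7 (9.22 to 9.35) and 11.32 for Gnl3 (10.59 to 10.78). Array 4 had 7.13 for Cdc20 (5.81 to 5.95), averaged 6.42 over G2 and mitosis genes (6.04 to 6.13) and 8.8 over neuron markers (7.66 to 7.83).

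The MCAO effect differed between the days for Hmox1, by -2.67, and, without array 3 of both 3-day groups, for 64 genes, by the test of the difference itself in limma.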

How the results depend on the processing

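The count of genes called for the difference of effects, 1 with all arrays, was 64 without replicate 3 of both 3-day groups. It was 3 under quantile normalisation, 5 under median centring, 5 with a pseudocount of 32, 16 with the mean of all probe sets, 259 with array weights, 2 with the 4 groups alone and 13 without the fifth lipopolysaccharide array. With the array set as a covariate it was 6 (3 higher, 3 lower), and in the bright arrays alone 58. These last 2, and leaving out sham array 3 of the 1-day group beside array 3 of the 3-day groups, were chosen after seeing the data. At adjusted p under 0.01 it was 0 and under 0.1 it was 25. Leaving out single arrays gave 0 to 27. The other filters, leaving out shared probe sets and a robust trended variance left it at 1. Without replicate 3 the count of 64 became 256 with array weights and 163 with the 4 groups alone, and lay between 51 and 78 under the rest. The cause of the larger counts was not tested.

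Titles and descriptions number the arrays differently. As a replicate block the title numbers gave 1 call and the description numbers 2, and Hmox1 had -2.71 (adjusted p = 0.193) and -2.53 (0.164). Deviations of arrays with the same description number correlated at 0.164 to 0.5 at 1 day and at 0.185, 0.027 and 0.208 at 3 days. With the same title number they correlated at -0.236 to 0.15 at 1 day. As the pairing did not hold for all 3-day pairs, the arrays were taken to share only a number, and Hmox1 was not called under either block.

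Of 3677 values of 92 named genes under the alternatives 3403 kept direction and side of the threshold, 227 passed it, 16 lost it and 31 turned sign. With all arrays Hmox1 alone was called, so for the other genes keeping a side there meant staying uncalled. Gfap, at 0.13, had -0.13 with the mean of all probe sets, -0.39 without shared probe sets, -1.52 in the bright arrays, and -0.19 to 0.67 when single arrays were left out, negative without sham array 3 of day 1 (-0.06) or, of day 3, MCAO array 2 (-0.07), sham array 1 (-0.07) or sham array 2 (-0.19). Vim had 0.27 without replicate 3 of both groups, -1.45 to 0.16 when single arrays were left out (0.16 without sham array 3 of day 3), and -0.22 without sham array 3 of day 1 and replicate 3. S100a10 without replicate 3 had 0.76, and Mcm2 -0.01, without shared probe sets. In the bright arrays the difference was -0.18 for Pbk, -0.4 for Cdk1, -0.17 for Ccnb2, -1.24 for Cep55, -1.54 for Cenpf, -0.0018 for Cdc20, -0.55 for Bub1b, -0.2 for Cenpa, -1.27 for Nusap1, -0.54 for Tk1, -0.46 for Ckap2 and -1.18 for Kif20a. There it was also -0.17 for Gins2, -1.47 for Mcm2, -0.32 for Bst2, -1.49 for Pdgfra, -0.41 for Lhfpl3, -3.18 for Ugt8a and -0.59 for Mag. The cause was not tested. Values near the floor of the arrays limit what low genes can show.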

Other observations

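Programmes not described above had medians from -0.34 to 0.20, against 0.06 over all genes. Of all 15726 genes 9042 had a positive difference with all arrays, and 942 had an unadjusted p under 0.05 in limma. Glycolysis and hypoxia genes had 14 of 22 with a positive difference (median 0.19, or 0.29 without array 3), and genes of phagocytosis, lysosome and lipid handling 16 of 23 with a positive difference (median 0.20, or 0.19 without array 3). Extracellular matrix and proteolysis genes had 15 of 39 with a positive difference (median -0.16, or -0.04 without array 3). Growth factors and receptors had 11 of 27 with a positive difference (median -0.31, or -0.24 without array 3), cytokines and chemokines 5 of 18 with a positive difference (median -0.34, or -0.14 without array 3) and glucocorticoid-responsive genes 5 of 14 with a positive difference (median -0.24, or -0.35 without array 3). Complement genes had 6 of 11 with a positive difference (median 0.01, or 0.21 without array 3). No member of these 7 lists was called for the difference by limma with all arrays or without array 3, and with all arrays 3, 1, 3, 5, 2, 0 and 0, in the order given, had an unadjusted p under 0.05.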
